A study of Homo sapiens with 4 samples.

Results

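The comparison concerned EpCAM-positive and EpCAM-negative cells of 1 liver cancer line, each given a control reagent with no intended target. It set the array of EpCAM-positive cells with negative-control antagomir (Antagomir-NC) against the array of EpCAM-negative cells with negative-control mimic (miR-NC mimics), which together are 2 of the 4 arrays of the series. Genes were kept by brightness alone: of 19775 genes with a probe set assigned to that gene only, 13180 reached the median signal of all probe sets (52.9), and 8130 reached the 75th percentile (265.6) in their brightest probe set, averaged over the 4 arrays. These 8130 genes are described here. The genes nearest the limit were CDC14B at a mean signal of 265.6, LMO7 at 265.8 and TEX19 at 265.9 just inside it, and FCMR at 265.5, SIM2 at 265.5 and ELF2 at 265.4 just outside it.

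The series profiled HCCLM3, a metastatic human hepatocellular carcinoma line, after magnetic sorting on EpCAM, in a search for target genes of the microRNA miR-429. EpCAM-negative cells received miR-NC mimics or miR-429 mimics at 100 nM, and EpCAM-positive cells received Antagomir-NC or Antagomir-429 at 40 μM, each over 4 days. All 4 cultures were the same line, had been sorted, and were kept in serum-containing medium. Mimics were transfected with the INTERFERin reagent, whereas cholesterol-conjugated antagomir was put on the cells without a transfection reagent in serum-free medium, and serum was returned about 4 hours later; that protocol names only Antagomir-429. The sorted fraction, the kind of reagent, its dose and its delivery therefore all differed together between both control arrays and cannot be told apart. Each group was 1 array, so no difference has a replicate check and no p-value is given.

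EpCAM is a calcium-independent adhesion molecule of epithelial cell membranes; its cleaved intracellular part can enter the nucleus with beta-catenin partners. In liver it marks fetal hepatoblasts, bile duct cells and progenitors and is largely missing from adult hepatocytes. In hepatocellular carcinoma, EpCAM-positive cells are widely studied as a tumour-initiating fraction. A mimic is a synthetic double-stranded microRNA, and an antagomir is a modified antisense strand that binds one.

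EPCAM itself, represented by 1 probe set, had signals of 1106 with miR-NC mimics and 3838 with miR-429 mimics in EpCAM-negative cells, against 1235 with Antagomir-NC and 913 with Antagomir-429 in EpCAM-positive cells. Between both control arrays its log2 ratio was 0.16 (1.12-fold higher in EpCAM-positive cells), whereas between both arrays given miR-429 reagents it was -2.07. The EPCAM transcript thus did not separate the fractions in the direction of their labels on these arrays; surface EpCAM protein was not measured on them. The cells are called by the labels of their sort from here on. The keratins KRT8 and KRT18 of simple epithelium were bright on every array, with KRT8 between 28365 and 33449 and KRT18 between 42723 and 50498. The biliary keratin KRT19 was between 4.3 and 12.4, under the median probe set on every array, and the hepatocyte product albumin (ALB) was under it too, at most 51.0. Alpha-fetoprotein (AFP), the fetal liver protein, reached 91.5 to 119, above the median probe set but too dim to be kept. Of 28 markers of leukocytes, endothelium and stroma, 26 were on the array and 3 were bright enough to be kept: COL1A1, ACTA2 and DES. Between 12 and 17 of the 26 reached the median probe set on an array, and their summed signal was 9404 with miR-NC mimics, 12965 with Antagomir-NC and 9939 to 10017 on the other arrays, most of it COL1A1. The pan-leukocyte gene PTPRC was below the median probe set on all 4 arrays. Their part in the results was not tested.

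All 4 arrays had been scaled to 1 trimmed mean (500.1), with medians from 62.8 to 67.2. Poly-A spike-ins, added to the RNA before labelling, averaged 12.02 (log2) with miR-NC mimics, 11.15 with miR-429 mimics, 11.58 with Antagomir-NC and 11.66 with Antagomir-429. Hybridisation controls averaged 13.23, 12.82, 13.03 and 13.06 in the same order. The ratio of 3' to 5' signal, which rises as RNA is shortened, was 3.41, 2.63, 3.12 and 3.07 for actin in the same order and 0.90 to 0.92 for GAPDH. EpCAM-positive cells thus had the lower spike-in, hybridisation-control and actin values in the control pair and the higher ones between the arrays given miR-429 reagents. The part of these values in the results was not tested.

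Between both control arrays most genes differed little. The log2 ratio, EpCAM-positive with Antagomir-NC over EpCAM-negative with miR-NC mimics, ranged from -2.44 to 1.79 over the 8130 genes, with a median of -0.00 and a robust SD of 0.31, and 89.6% of genes lay within 1.5-fold. Of the 8130 genes 4028 were above 0 (49.5%) and 4102 were below 0, the background for the counts of each list. A gene's ratio is that of its brightest probe set; probe-set numbers, ranges and medians given for a gene cover its probe sets at or above the median signal. At least 2-fold higher in EpCAM-positive cells were 60 genes (0.738%), and at least 2-fold lower were another 60 (0.738%). These 120 genes were mostly dim. The median mean signal was 444 among the higher and 385 among the lower ones, against 1276 over all 8130 genes, and 37 genes of each set were below 500. When the genes were divided into 4 equal groups by brightness, the robust SD of the ratio was 0.43 in the dimmest group and 0.22 in the brightest, and the dimmest group held 40 of the higher and 41 of the lower genes.

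**Figure D1:**
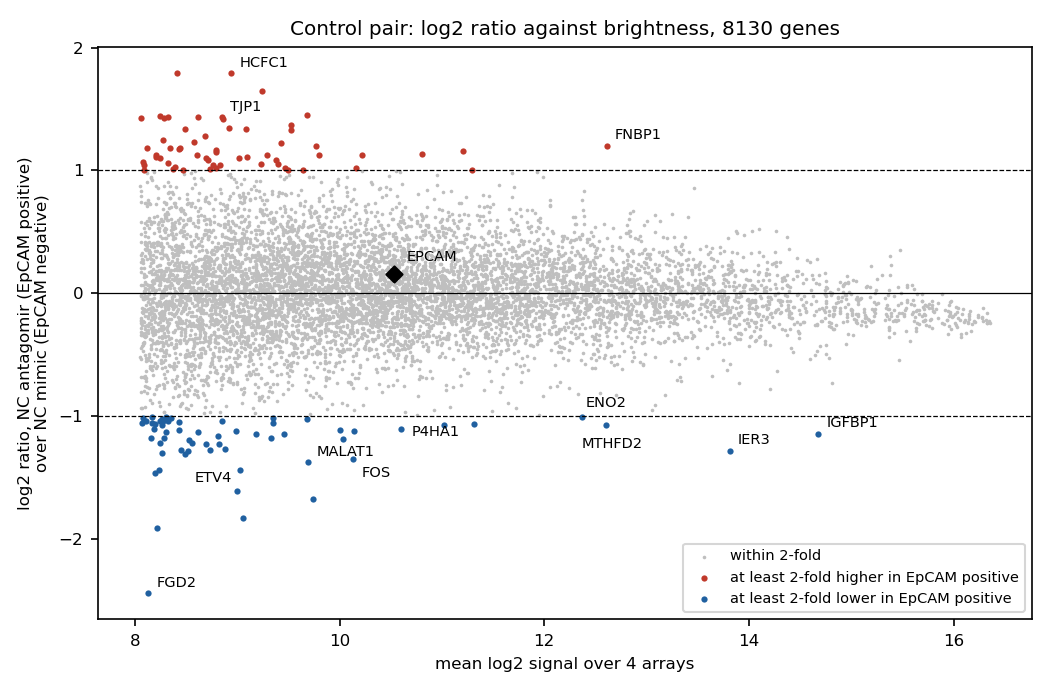
Log2 ratio between both control arrays (EpCAM-positive with Antagomir-NC over EpCAM-negative with miR-NC mimics) against the mean log2 signal of the 4 arrays, 1 point per gene for 8130 genes, with lines at 2-fold. The scatter narrows with brightness, from a robust SD of 0.43 in the dimmest of 4 equal groups to 0.22 in the brightest, and 60 genes lie past each line.

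The other array of each fraction gave a pair that shared no array with the control pair: EpCAM-positive cells with Antagomir-429 over EpCAM-negative cells with miR-429 mimics. It is called the treated pair here. It also compared EpCAM-positive with EpCAM-negative cells and antagomir with mimic, but in addition opposed blockade of miR-429 to its addition, so it is no repeat. In it, 37 genes were at least 2-fold higher (0.455%) and 101 at least 2-fold lower (1.24%). Across the 8130 genes the ratios of both pairs had a Pearson correlation of 0.21 and a Spearman correlation of 0.16; genes are not independent replicates, and all 4 arrays share 1 line and platform. Of the 60 genes higher in the control pair, 36 were above 0 in the treated pair and 2 were past 2-fold there. Of the 60 lower genes 46 were below 0 and 9 were past 2-fold. None of these genes was past 2-fold in opposite directions. Over all 8130 genes, 4374 were above 0 in the treated pair (53.8%) and 3756 were below 0. Both EpCAM-positive arrays lay above both EpCAM-negative arrays for 1579 of the 8130 genes (19.4%), and below both for 1423 (17.5%). Of the 60 lower genes 45 were below on both EpCAM-positive arrays, and of the 60 higher genes 31 were above on both. The control pair itself chose these genes, so part of this separation is given by the choice.

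**Figure D2:**
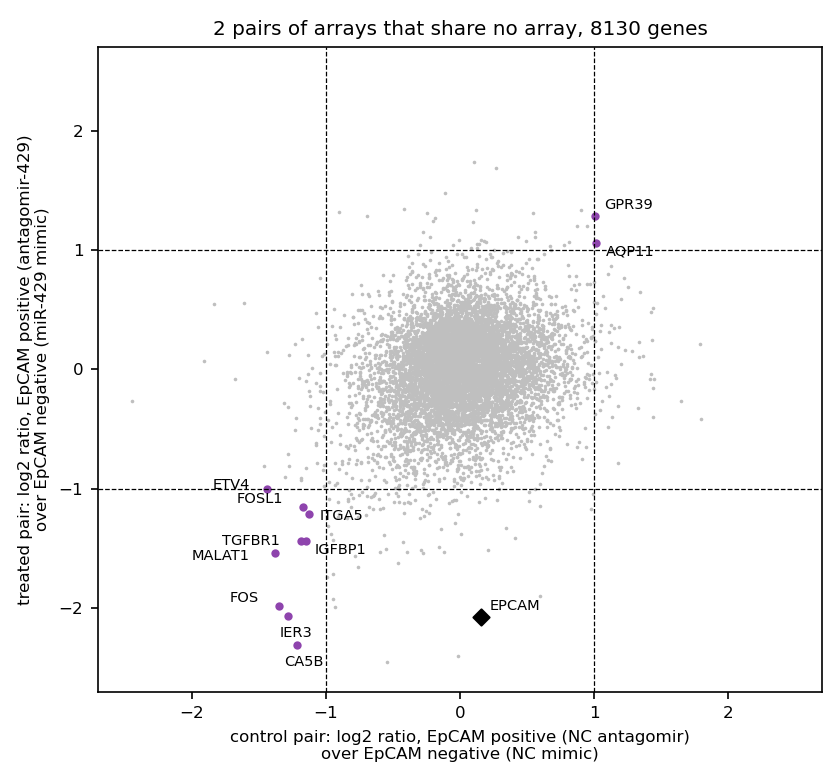
Log2 ratio of the treated pair (Antagomir-429 over miR-429 mimics) against that of the control pair (Antagomir-NC over miR-NC mimics), both EpCAM-positive over EpCAM-negative, 1 point per gene for 8130 genes. The pairs share no array; 9 genes lie past 2-fold lower on both axes and 2 past 2-fold higher on both.

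Among the genes lower in EpCAM-positive cells by at least 2-fold in both pairs were early or growth-factor-induced genes, namely FOS, FOSL1, IER3 and ETV4. The others, described below, were MALAT1, CA5B, TGFBR1, IGFBP1 and ITGA5. ERK activity was not measured on these arrays. Receptor tyrosine kinases activate ERK through RAS; ERK then induces FOS-family genes within minutes, PEA3-type ETS factors, and phosphatases that switch ERK off again. FOS, a subunit of the AP-1 transcription factor, had signals of 1727 with miR-NC mimics and 2325 with miR-429 mimics, against 679 with Antagomir-NC and 587 with Antagomir-429. It was 2.55-fold lower in the control pair (log2 ratio -1.35), with a log2 ratio of -1.98 in the treated pair. FOSL1, the AP-1 subunit FRA-1, had signals of 728 and 624 in EpCAM-negative cells (control, then miR-429 reagent, as in all following pairs of values) and 324 and 280 in EpCAM-positive cells. For both AP-1 subunits the EpCAM-positive arrays were lower than the EpCAM-negative arrays without overlap. IER3, an early gene that modulates ERK and cell death, was the brightest of these early genes, with 24163 and 27392 in EpCAM-negative cells against 9931 and 6525 in EpCAM-positive cells. Its log2 ratio was -1.28 in the control and -2.07 in the treated pair. ETV4, an ETS factor of the PEA3 group, had signals of 850 and 751 against 313 and 375. Both of its probe sets were lower in the control pair, at -1.44 and -1.18. Of the 27 immediate-early and MAPK genes kept, 3 were past 2-fold lower in the control pair and 1 was past 2-fold higher. The list as a whole was divided, with 14 genes below 0, 13 above 0 and a median of -0.13 in the control pair. In the treated pair 24 of the 27 were below 0, 7 past 2-fold, with a median of -0.47. The gene past 2-fold higher was ZFP36L2, an RNA-binding protein that promotes mRNA decay, at 1.13 in the control and -0.40 in the treated pair, although its other probe set was at -0.15 in the control pair.

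Genes of the EGFR family, its ligands and the feedback on ERK had a median of -0.45 over 13 genes in the control pair and -0.48 in the treated pair. In the control pair 9 of the 13 were below 0, 2 of them past 2-fold, and in the treated pair 12 of 13 were below 0. With no filter, over the 22 listed genes on the array, the control-pair median was 0.0059. DUSP4, a nuclear phosphatase of ERK, was the other gene past 2-fold beside ETV4, at -1.07, although its 3 probe sets spread from -1.07 to -0.05 with a median of -0.75, under 2-fold. The ERK phosphatase DUSP5 had signals of 3819 and 4883 in EpCAM-negative cells and 1959 and 1880 in EpCAM-positive cells, a control-pair ratio of -0.96. ETV5, a further PEA3-group factor, had 446 and 685 against 232 and 255, a ratio of -0.94. The receptors at the head of the pathway lay on the other side of 0 in the control pair: EGFR was at 0.54 and ERBB3 at 0.85, with -0.48 and -0.15 in the treated pair. The probe sets of EGFR spread from 0.09 to 1.16.

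NF-kB is held in the cytoplasm by inhibitor proteins and, once released, drives cytokines, adhesion molecules and its own inhibitors. Its list leaned to lower signal in EpCAM-positive cells: 16 of 19 genes were below 0 in the control pair, with a median of -0.29, and 18 of 19 in the treated pair, with a median of -1.01. Past 2-fold lower were 1 gene in the control pair and 10 in the treated pair. For 15 of the 19 both EpCAM-positive arrays were below both EpCAM-negative arrays, against 17.5% of all genes, and for none were they above. NFKBIE, the inhibitor IkB-epsilon, was the gene past 2-fold, with signals of 1016 and 841 in EpCAM-negative and 448 and 449 in EpCAM-positive cells. IL6, an inflammatory cytokine, had 806 and 1139 against 455 and 566, a ratio of -0.83. RELB, a subunit of NF-kB, had 779 and 996 against 447 and 473, a ratio of -0.80. ICAM1, an adhesion ligand for leukocyte integrins, had 831 and 1269 against 566 and 448; its log2 ratio was -0.56, and its 3 probe sets ranged from -0.56 to 0.09. TNFAIP3, the feedback inhibitor A20, was at -0.46. These genes were low on both EpCAM-positive arrays, and all but NFKBIE were highest with miR-429 mimics. Above 0 in the control pair were NFKBIA, NFKB1 and LCN2, at 0.14, 0.17 and 0.21. The chemokine CXCL8 was too dim to be kept, with 369 and 391 in EpCAM-negative cells against 94.7 and 73.9 in EpCAM-positive cells.

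The 250 bases before the annotated start of each gene (RefSeq, GRCh38.p14) were searched on both strands for GGANNTTCC, a short form of the NF-kB site. It stood in 9 of the 15 list genes that had a promoter sequence (60%), in 3.94% of 6753 kept genes with one and in 3.88% of all 27305 promoters. NF-kB targets are partly known from such sites, so this share describes the list. The promoters of IL6 (chr7:22726950-22727199, plus strand) and ICAM1 (chr19:10270870-10271119, plus strand) are shown as members of the list with a match and low signal on both EpCAM-positive arrays, 5' to 3' with the match in capitals, 72 and 186 bases before the start.
IL6: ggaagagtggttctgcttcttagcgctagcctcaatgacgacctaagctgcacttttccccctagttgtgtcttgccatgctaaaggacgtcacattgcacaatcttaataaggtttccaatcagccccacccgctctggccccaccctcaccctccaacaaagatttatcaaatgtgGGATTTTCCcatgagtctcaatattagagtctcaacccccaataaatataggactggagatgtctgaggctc
ICAM1: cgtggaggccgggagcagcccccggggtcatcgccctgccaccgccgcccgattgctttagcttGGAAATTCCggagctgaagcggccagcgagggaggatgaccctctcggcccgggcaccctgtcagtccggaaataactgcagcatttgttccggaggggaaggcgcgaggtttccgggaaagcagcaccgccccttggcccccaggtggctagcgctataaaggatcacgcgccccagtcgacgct
The 9 genes with a match had a median log2 ratio of -0.29 in the control pair and -1.50 in the treated pair, and the 6 without one -0.21 and -0.49. Below 0 in the control pair were 6 of the 9 with a match and all 6 without one. The part of the motif in these ratios was not tested. A match describes these letters and not binding.

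Genes of hypoxia and glycolysis were lower in EpCAM-positive cells as a broad group. Under low oxygen the HIF transcription factors are no longer degraded and raise glucose transport, glycolytic enzymes, collagen hydroxylases and angiogenic factors. Of 42 genes kept, 37 were below 0 in the control pair and 32 in the treated pair, with medians of -0.34 and -0.48. Both EpCAM-positive arrays were below both EpCAM-negative arrays for 26 of the 42, against 17.5% of all genes, and above both for none, against 19.4%. Past 2-fold lower in the control pair were 3 genes. ANGPTL4, a secreted inhibitor of lipoprotein lipase, had signals of 690 and 540 in EpCAM-negative cells and 285 and 309 in EpCAM-positive cells, 2.42-fold lower in the control pair; its other probe set was at -0.48 and the median of both at -0.88, under 2-fold. P4HA1, a catalytic subunit of collagen prolyl hydroxylase, had 3484 and 3550 against 1665 and 2064, 2.09-fold lower. ENO2, the neuronal form of enolase, had 8388 and 6608 against 4164 and 3360, 2.01-fold lower. All 3 were separated by fraction on the 4 arrays, with treated-pair log2 ratios of -0.81, -0.78 and -0.98. HK2, the inducible hexokinase, was at -0.83 and -1.10, although not every probe set of it was below 0 in the control pair. PFKFB4, an enzyme that sets the activator of phosphofructokinase, was at -0.82 and -0.64, with its other probe set at 0.05 in the control pair. The hypoxia-induced gene NDRG1 was bright, with 58823 and 49444 against 40258 and 36308. Abundant glycolytic enzymes had smaller ratios of opposite sign in both pairs: LDHA was at -0.29 in the control and 0.14 in the treated pair, ENO1 at -0.32 and 0.10, and GAPDH at -0.24 and 0.23. Such signs depended on the scaling: under quantile normalization 4 of the 42 list genes were above 0 in the treated pair, against 10 without it. Above 0 in the control pair were PFKFB3 at 0.35, PLOD2 at 0.29, CA12 at 0.28 and PFKM at 0.13 among the 5 genes there.

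The core hypoxia response element ACGTG was searched in the same promoter windows on both strands. Among genes with a promoter sequence it stood in 12 of 39 of the 2-fold lower set (30.8%) and in 13 of 51 of the higher set (25.5%). In the hypoxia list it stood in 18 of the 38 genes with a promoter sequence (47.4%), against 24.6% of 6753 kept genes and 18.7% of all promoters. The promoters of the 3 genes past 2-fold all held it and are shown with motif matches in capitals: ANGPTL4 (chr19:8363905-8364154, plus strand) at 234 bases before the start, P4HA1 (chr10:73096867-73097116, minus strand) at 86 and ENO2 (chr12:6914330-6914579, plus strand) at 118. In ENO2 the capitals nearer the start, at 94 bases before it, mark a match to TGANTCA, the AP-1 site. That site stood in none of the 19 immediate-early and MAPK genes with a promoter sequence, in 1 of 39 genes of the 2-fold lower set (2.56%), in 3.45% of 6753 kept genes and in 6.60% of all promoters.
ANGPTL4: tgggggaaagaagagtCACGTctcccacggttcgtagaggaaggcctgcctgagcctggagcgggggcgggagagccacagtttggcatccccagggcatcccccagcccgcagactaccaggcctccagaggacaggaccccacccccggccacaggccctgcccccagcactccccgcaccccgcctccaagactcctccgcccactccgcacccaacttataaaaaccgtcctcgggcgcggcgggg
P4HA1: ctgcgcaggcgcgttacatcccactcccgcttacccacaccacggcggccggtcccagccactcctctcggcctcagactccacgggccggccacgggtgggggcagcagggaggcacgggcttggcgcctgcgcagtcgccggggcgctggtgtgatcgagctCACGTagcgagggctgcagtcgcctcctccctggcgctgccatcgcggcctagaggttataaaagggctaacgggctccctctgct
ENO2: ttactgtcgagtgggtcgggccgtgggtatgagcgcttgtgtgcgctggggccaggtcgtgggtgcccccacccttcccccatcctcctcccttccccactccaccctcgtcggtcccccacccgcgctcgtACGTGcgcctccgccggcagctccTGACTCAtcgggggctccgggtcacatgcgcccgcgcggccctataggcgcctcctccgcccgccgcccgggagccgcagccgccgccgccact
The 18 genes with a match had medians of -0.41 in the control and -0.69 in the treated pair, and 17 of them were below 0 in the control pair. The 20 genes without one had medians of -0.32 and -0.24, with 16 below 0. Here too a match describes letters and not binding, and the part of the motif in these ratios was not tested.

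**Figure D3:**
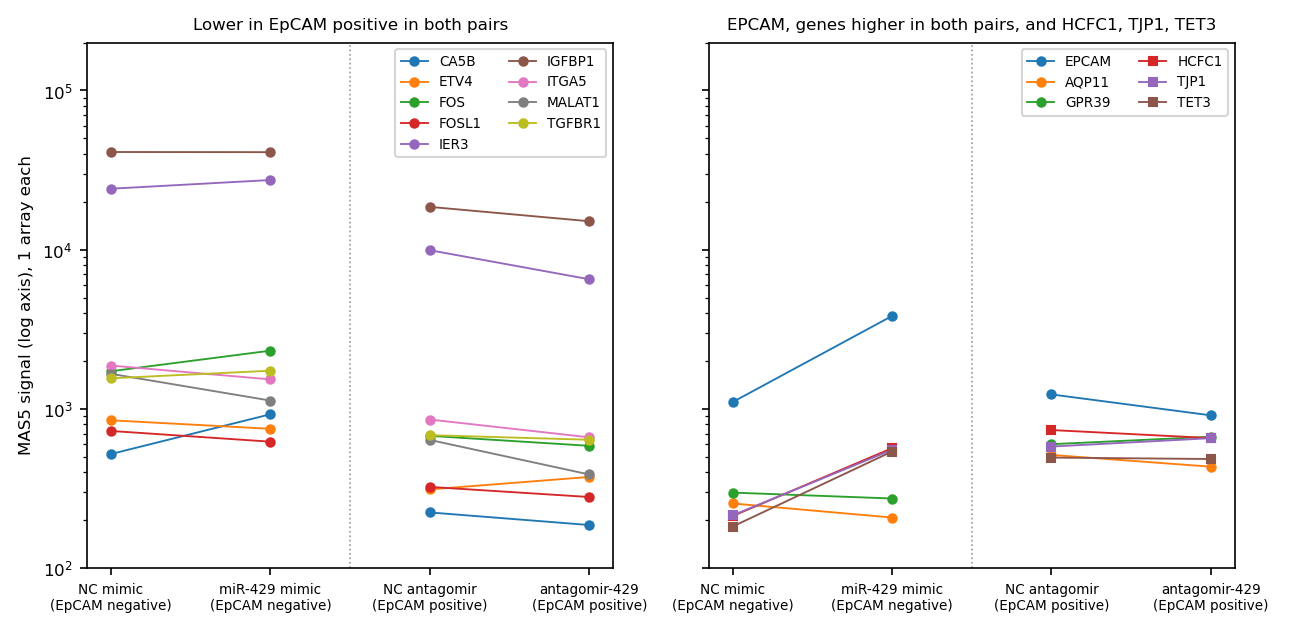
MAS5 signals (log axis) on the 4 arrays for the genes past 2-fold lower in both pairs (left) and for EPCAM, AQP11, GPR39, HCFC1, TJP1 and TET3 (right), 1 point per array and lines joining the arrays of 1 fraction. FOS, IER3 and IGFBP1 lie lower on both EpCAM-positive arrays, whereas HCFC1, TJP1 and TET3 lie low on the miR-NC mimic array alone.

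Further genes past 2-fold lower in both pairs were of mixed kinds: secreted or membrane proteins, a mitochondrial enzyme and a non-coding RNA. IGFBP1, a liver protein that binds insulin-like growth factors, was the brightest of the 60 lower genes, with 41079 and 40984 in EpCAM-negative cells and 18580 and 15097 in EpCAM-positive cells. It was 2.21-fold lower in the control pair. ITGA5, the alpha chain of the fibronectin receptor, had 1874 and 1535 against 859 and 664, 2.18-fold lower. TGFBR1, the signalling receptor of TGF-beta, had 1560 and 1740 against 685 and 641, 2.28-fold lower, with both probe sets at or above the median signal below -1. On these 3 genes the EpCAM-positive arrays were below the EpCAM-negative arrays by a wide margin. CA5B, a mitochondrial carbonic anhydrase, had 522 and 927 against 224 and 187, 2.33-fold lower. MALAT1, an abundant nuclear non-coding RNA, had 1663 and 1130 against 640 and 388, but its 8 probe sets at or above the median signal, of 12 in all, ran from -2.82 to 0.10 with a median of -0.65, under 2-fold. TGFB1, the ligand of TGFBR1, was at -1.07 in its brightest probe set and 0.03 in its other one.

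The TGF-beta and BMP list did not lean one way. Of 27 genes 16 were above 0 and 11 below in the control pair, with a median of 0.09, and in the treated pair 21 were below 0, with a median of -0.12. Beside TGFBR1 and TGFB1, SMAD3, which carries the signal to the nucleus, was at -0.73, with its other probe set at 0.39. SMURF1, a ubiquitin ligase that removes SMADs and receptors, was past 2-fold higher at 1.17 with probe sets from -0.80 to 1.29, and the inhibitory SMAD6 was at 0.88 with probe sets from -0.98 to 0.88. In the treated pair SMURF1 was at -0.07 and SMAD6 at -0.08. CCN2, a matrix-associated target of TGF-beta and YAP, had 589 and 1138 in EpCAM-negative cells against 1073 and 1799 in EpCAM-positive cells, at 0.86 and 0.66. Of 23 matrix and integrin genes 13 were above 0 and 10 below, with a median of 0.04. ITGA5 was past 2-fold lower and COL12A1, a fibril-associated collagen, was at 0.91. Matrix proteases and urokinase-system genes had 5 above and 10 below 0 of 15, with a median of -0.07 and values from -0.41 for TIMP3 to 0.55 for TIMP2.

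Genes of mitosis and of DNA replication leaned to opposite sides of 0. E2F factors drive replication genes at the start of S phase, and mitotic genes are switched on later, in G2. Of 41 mitosis genes 31 were below 0 in the control pair, 5 of them past 2-fold, with a median of -0.19. In the treated pair 31 were again below 0, none past 2-fold, with a median of -0.14. Over all 8130 genes 4102 were below 0 in the control and 3756 in the treated pair. For 15 of the 41 both EpCAM-positive arrays were below both EpCAM-negative arrays, against 17.5% of all genes. They were above both for 2 of the 41, against 19.4%. The genes past 2-fold lower were TOP2A (topoisomerase II, at -1.31), HMMR (a spindle-associated hyaluronan receptor, at -1.28), ANLN (an actin scaffold of the cleavage furrow, at -1.15), NUF2 (a kinetochore protein, at -1.02) and ECT2 (the activator of RhoA in cytokinesis, at -1.01). Both probe sets at or above the median signal gave this direction for TOP2A (-1.31 and -1.13) and for HMMR (-1.28 and -1.40). Those of ANLN did too, at -1.15 and -0.92, the latter under 2-fold. ECT2 fell just under 2-fold with quantile normalization (-0.998) and with an added offset (-0.996). CDK1, the kinase that starts mitosis, had 5262 on the miR-NC mimic array against 2863, 2745 and 3169 on the miR-429 mimic, Antagomir-NC and Antagomir-429 arrays, so that 1 array was high rather than 1 fraction. It was at -0.94 in the control and 0.15 in the treated pair. Of 45 E2F and replication genes 28 were above 0 and none was past 2-fold, with medians of 0.11 in the control and 0.09 in the treated pair. For 18 of the 45 both EpCAM-positive arrays were above both EpCAM-negative arrays, against 19.4% of all genes. ORC1, a subunit of the origin recognition complex, was at 0.80 and 0.04, and RRM1, the large subunit of ribonucleotide reductase, was at -0.78 and -0.79 in the control and treated pair. Targets of p53 and CDK inhibitors had 17 of 21 genes below 0 in the control pair, with a median of -0.19 and none past 2-fold, and 11 of 21 in the treated pair. MDM2, the ubiquitin ligase of p53, was at -0.97 with probe sets from -0.97 to 0.31, and SAT1, an enzyme of polyamine breakdown, was at -0.91.

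The 60 genes higher in EpCAM-positive cells had a different pattern over the 4 arrays. The miR-NC mimic array was the lowest of the 4 for 57 of them, against 29.3% of all 8130 genes; the choice of genes already placed it below the Antagomir-NC array. The Antagomir-NC array was the highest of the 4 for 23. HCFC1, a chromatin-associated coregulator, had 213 on the miR-NC mimic array and 568 with miR-429 mimics, against 738 and 657 in EpCAM-positive cells. ITSN1, an endocytic scaffold, had 142 and 507 against 493 and 380, 3.47-fold higher in the control pair and at -0.42 in the treated pair. The median of its 3 probe sets was 0.41, under 2-fold. HCFC1 and ITSN1 were low on 1 array in these probe sets, and for ITSN1 the other EpCAM-negative array was the highest of the 4. TJP1, the tight-junction scaffold ZO-1, had 215 and 554 against 581 and 656, and its probe sets disagreed, at 1.43 and -1.08. Other genes among the largest ratios were LMTK2, ELF1, TET3, SKIDA1, RCAN3, XPNPEP3, BRAP, TCAF1, KLF11, TOR1AIP1, ZBTB7B and ZNF416. Under the median over probe sets LMTK2, SKIDA1, XPNPEP3, BRAP, TCAF1, KLF11, TOR1AIP1 and ZBTB7B were no longer past 2-fold. Of the 60, 41 had 2 or more probe sets above the median signal; for 21 of these all probe sets had the same sign, and for 5 all were past 2-fold.

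AQP11 and GPR39 were the genes past 2-fold higher in both pairs. AQP11, an aquaporin of intracellular membranes, had 255 and 208 in EpCAM-negative cells and 515 and 435 in EpCAM-positive cells. GPR39, a zinc-sensing receptor, had 299 and 274 against 602 and 670, but its 3 probe sets ranged from -1.39 to 1.01 with a median of 0.43, under 2-fold. AQP11 had 1 probe set. Both were dim, and both were separated by fraction. Under median centring and quantile normalization the control-pair ratios fell just under 2-fold, to 0.981 and 0.994 for AQP11 and 0.978 and 0.983 for GPR39.

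Genes of the higher set were also long. Their median genomic span, from the first to the last annotated base in RefSeq, was 75.7 kb, against 25.2 kb over all kept genes and 24.7 kb in the lower set. When 8125 kept genes with a span were put in 5 equal groups, the median log2 ratio of the control pair went from -0.10 in the shortest (median span 4.44 kb) to 0.12 in the longest (median span 124 kb). The longest group held 31 genes past 2-fold higher and the shortest 5. In the treated pair the order was the other way, from 0.13 in the shortest to -0.08 in the longest. Spearman correlations of ratio with span were 0.21 in the control and -0.18 in the treated pair over 8125 genes, given as a description. The part of span in the gene ratios was not tested.

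Wnt and Notch genes stood mostly above 0 in the control pair, 20 of 28 with a median of 0.24, and mostly below in the treated pair, 19 of 28 with a median of -0.08. SP5, a transcription factor induced by beta-catenin, was past 2-fold higher, with 180 and 273 in EpCAM-negative cells and 428.6 and 440.1 in EpCAM-positive cells. The receptor NOTCH2 was at 0.97, the Wnt effector TCF7L2 at 0.78 and the R-spondin receptor LGR4 at 0.71; in the treated pair they were at -0.08, -0.01 and -0.16. Median span in this list was 40.2 kb, and the miR-NC mimic array was the lowest of the 4 for 14 of the 28, against 25.2 kb and 29.3% over all kept genes. The probe sets of NOTCH2 ran from -0.47 to 1.14, and those of TCF7L2 from 0.12 to 3.37. The small-RNA machinery, through which mimics and antagomirs act, had 15 of 19 genes above 0, none past 2-fold, with medians of 0.18 in the control and 0.05 in the treated pair. Its median span was 44.0 kb, and the miR-NC mimic array was the lowest of the 4 for 11 of the 19. CNOT1, the scaffold of the CCR4-NOT deadenylase, was at 0.78 and -0.20, and AGO1, an Argonaute protein, at 0.76 and -0.03, with the 3 probe sets of AGO1 running from -1.21 to 0.76 in the control pair. Chromatin regulators had 28 of 44 above 0, with a median of 0.09. Their median span was 51.0 kb, and the miR-NC mimic array was the lowest for 21 of the 44. TET3, which oxidises methylcytosine, was at 1.44, and ARID1A, a subunit of the BAF remodelling complex, at 1.20; in the treated pair they were at -0.16 and 0.05. The probe sets of ARID1A ran from -0.33 to 1.20 with a median of 0.44, under 2-fold, whereas both of TET3 were past 2-fold.

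**Figure D4:**
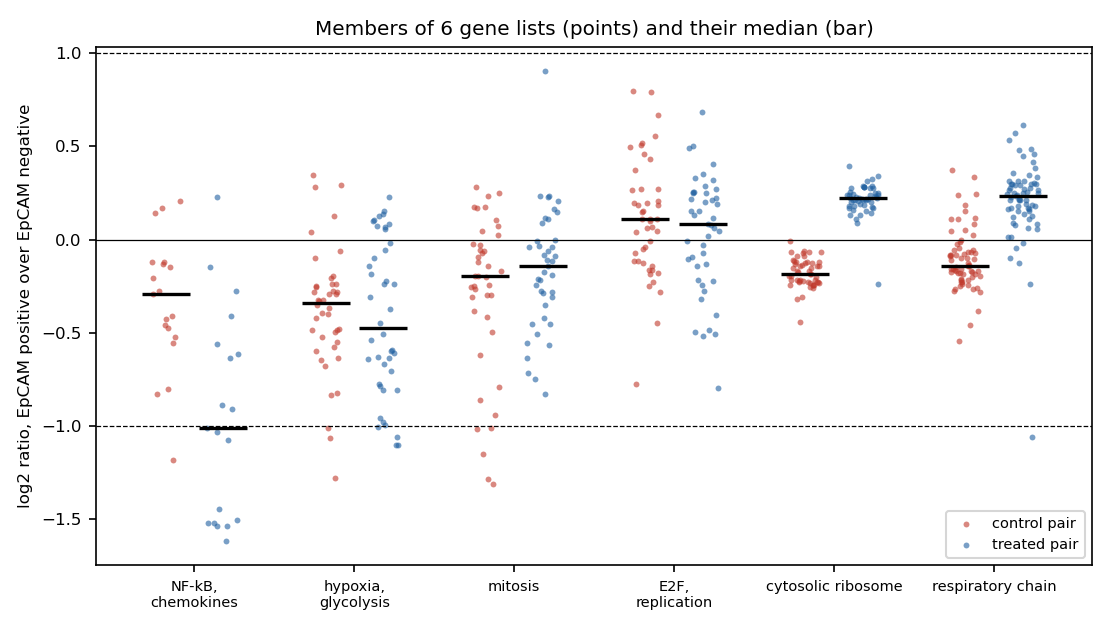
Log2 ratio of each kept gene in 6 gene lists, control pair (left) and treated pair (right) side by side, EpCAM-positive over EpCAM-negative, with bars at the list medians and dashed lines at 2-fold. Genes of the NF-kB and hypoxia lists lie mostly below 0 in both pairs, and the 51 cytosolic ribosomal protein genes lie below 0 in the control pair while 50 lie above 0 in the treated pair.

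Epithelial, mesenchymal and tumour-initiating genes had control-pair medians near 0. Both EpCAM-positive arrays were below both EpCAM-negative arrays for 7 of 18 epithelial (38.9%), 3 of 17 mesenchymal (17.6%) and 3 of 9 tumour-initiating genes (33.3%), against 17.5% of all genes. They were above both for 3 (16.7%), 5 (29.4%) and 1 (11.1%), against 19.4% of all genes. Of 18 epithelial junction and keratin genes 7 were above 0 and 11 below in the control pair, with a median of -0.07, TJP1 past 2-fold higher and none past 2-fold lower. DSP, the desmosomal plaque protein, had 1662 on the miR-NC mimic array against 4230, 3065 and 3859 on the miR-429 mimic, Antagomir-NC and Antagomir-429 arrays, at 0.88 and -0.13. CLDN4, a tight-junction claudin, was at -0.64 and -1.17, and MAL2, a protein of apical transport, at -0.70 and -1.22. CDH1, which encodes E-cadherin, was too dim to be kept, with 68.7 as its highest signal. Of 17 mesenchymal genes 12 were above 0, with a median of 0.13. FBN1, the microfibril protein fibrillin-1, was past 2-fold higher at 1.33 and ITGA5 past 2-fold lower. FBN1 had 365 and 1047 in EpCAM-negative cells against 917 and 838, so that the miR-NC mimic array alone was low. Its treated-pair ratio was -0.32. SNAI2, the repressor SLUG, was at 0.82 and -0.02, and the N-cadherin gene CDH2 at 0.76 and -0.34. Of 9 tumour-initiating and pluripotency genes 5 were above 0 in the control pair and 1 in the treated pair, with medians of 0.05 and -0.52. CD24, a surface glycoprotein used to mark progenitor and tumour-initiating cells, was the gene above 0 in both. It had 3232 and 5289 in EpCAM-negative cells and 5745 and 8439 in EpCAM-positive cells, and its 6 probe sets ranged from 0.02 to 1.08. The hyaluronan receptor CD44 was at -0.05 and SOX9, a factor of biliary progenitors, at -0.00; in the treated pair they were at -0.97 and -0.90.

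The lowest ratio of the control pair was not past 2-fold in the treated pair. FGD2, an activator of CDC42, had 395 and 508 in EpCAM-negative cells and 72.6 and 422 in EpCAM-positive cells. It was 5.44-fold lower in the control pair and at -0.27 in the treated pair, so that the Antagomir-NC array alone was low; its other probe set was at -0.05 in the control pair, and the median of both was -1.25. The other 14 of the 15 lowest ratios were those of PYGB, COQ8B, CST2, CACNG4, SAMD4A, ETV4, SPINDOC, MALAT1, FOS, TOP2A, HSPA13, HMMR, PPP6R3 and IER3, of which SAMD4A, MALAT1 and PPP6R3 were under 2-fold in the median over probe sets. In the treated pair PYGB, COQ8B, CACNG4 and SPINDOC were above 0, at 0.07, 0.55, 0.56 and 0.15. CST2 was at -0.08 there, and the rest ran from -2.07 for IER3 to -0.28 for TOP2A. PYGB had 395 and 425 in EpCAM-negative cells against 105 and 446. The Antagomir-NC array was the lowest of the 4 for 47 of the 60 lower genes, against 17.8% of all kept genes, and the miR-NC mimic array the highest for 43, against 30.3%; the choice of genes already placed the former below the latter, so both counts are largely given by it. Of the 60, 32 had 2 or more probe sets above the median signal; all had the same sign for 21 and were past 2-fold for 7.

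Ribosomal and respiratory genes had small ratios that were turned between both pairs. All 51 cytosolic ribosomal protein genes kept were below 0 in the control pair, with a median of -0.18, and 50 of 51 were above 0 in the treated pair, with a median of 0.22. None was past 2-fold. The poly-A spike-ins (12.02 and 11.58 in the control pair, 11.15 and 11.66 in the treated pair) turned in the same way between the pairs. So did the hybridisation controls (13.23 and 13.03, then 12.82 and 13.06) and the actin ratio of 3' to 5' signal (3.41 and 3.12, then 2.63 and 3.07). Their part in the ribosomal ratios was not tested. The miR-NC mimic array was the highest of the 4 for 49 of the 51 and the miR-429 mimic array the lowest for 50. Under quantile normalization 26 were above 0 and 24 below in the control pair, with a median of 0.00, and the direction was lost in both pairs. Other very bright genes had like values: among the 152 genes outside the ribosomal list above a mean log2 signal of 15, the median was -0.17 in the control and 0.21 in the treated pair. Genes of the respiratory chain, which makes ATP in mitochondria, were below 0 for 54 of 67 in the control pair (median -0.14) and above 0 for 61 of 67 in the treated pair (median 0.23). Under quantile normalization these medians were -0.03 and 0.10. Mitochondrial ribosomal proteins had medians of -0.01 and 0.19 over 76 genes, and proteasome subunits -0.08 and 0.08 over 34 genes.

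Most of the remaining lists lay near 0 in the control pair. Splicing factors had 34 of 47 genes above 0 with a median of 0.07, NRF2 targets and aldo-keto reductases 17 of 28 with a median of 0.07, and genes of the aryl hydrocarbon receptor 5 of 9 with a median of 0.08. Sterol and fatty acid genes had 18 of 32 below 0 with a median of -0.04. Stress-response genes and chaperones had 19 of 35 below 0 with a median of -0.09. MTHFD2, a mitochondrial folate enzyme, was past 2-fold lower at -1.07, with its other probe set at 0.31. It had 7828 and 7493 in EpCAM-negative cells against 3724 and 6940, so that the Antagomir-NC array alone was low. Its treated-pair ratio was -0.11. Interferon genes and RNA sensors, which respond to double-stranded RNA such as a mimic, had 18 of 26 below 0 with a median of -0.11 and none past 2-fold. In the treated pair 17 of the 26 were above 0. Of 42 hepatocyte genes 5 were bright enough to be kept. Of these 2 were above 0 in the control pair (median -0.17) and 4 in the treated pair (median 0.17). PCK1, the entry enzyme of gluconeogenesis, was at -0.95 and -1.92, whereas CEBPA was at 0.58 and 0.36. Of 6 nuclear-enriched and other non-coding RNAs 5 were below 0, led by MALAT1. Among the stromal markers COL1A1 had 7162 and 7404 in EpCAM-negative cells and 10500.0 and 7633 in EpCAM-positive cells. ACTA2 had 291 and 312 against 476 and 457, whereas DES went the other way, with 438 and 350 against 266 and 255. In a culture, fewer cells of a kind and less RNA in each cell cannot be told apart.

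**Figure D5:**
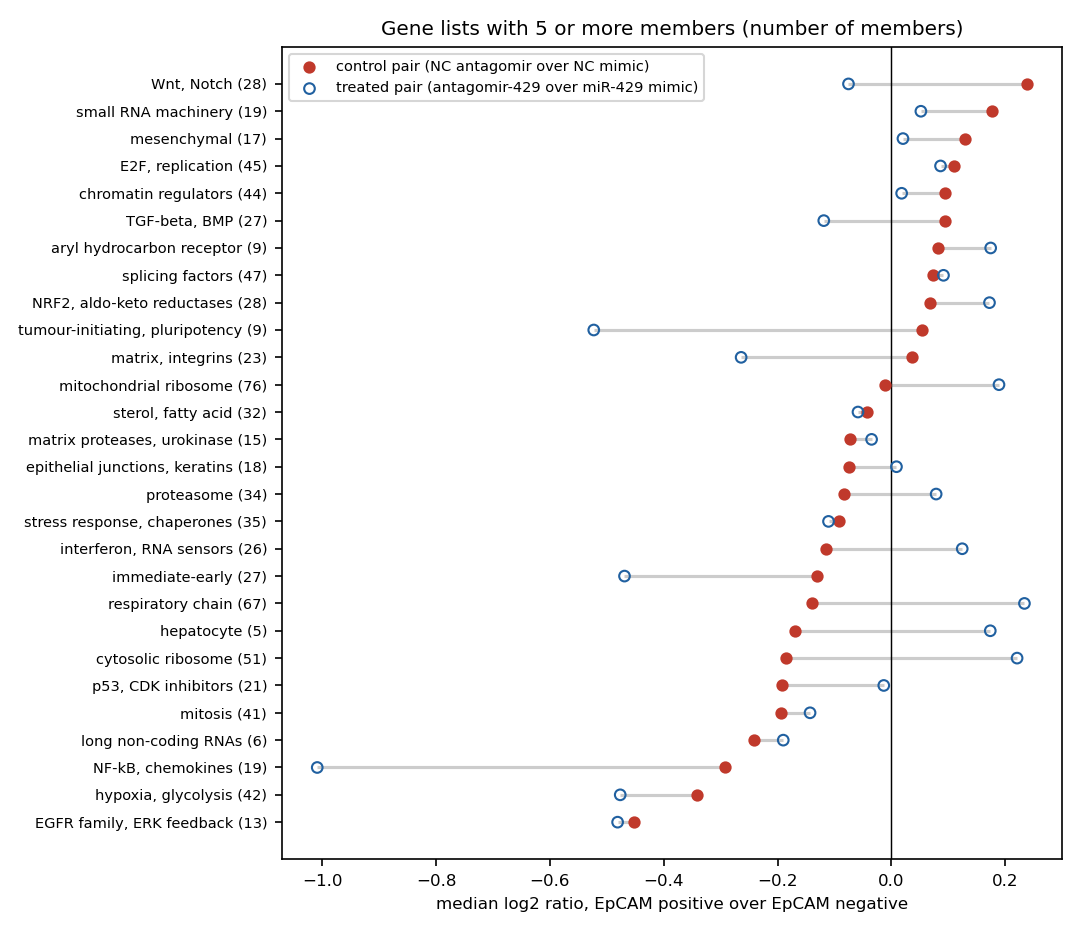
Median log2 ratio of each gene list in the control pair and in the treated pair, EpCAM-positive over EpCAM-negative, 1 row per list of 5 or more kept genes with their number. The EGFR family and ERK feedback, hypoxia and NF-kB lists lie at -0.45, -0.34 and -0.29 in the control pair and lower in the treated pair, while the cytosolic ribosome lies at -0.18 and 0.22.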

How the data were processed

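RNA of 4 cultures of the HCCLM3 line was hybridised to Affymetrix Human Genome U133 Plus 2.0 arrays, 1 array per group, and 2 control arrays form the comparison. Values are log2 signals as deposited by the authors, and the submitters' processing notes name MAS5; signal here is 2 raised to that value. A MAS5 signal is computed array by array, so dim probe sets scatter widely on the log2 scale. A signal has no read depth, and 1 array a group limits precision. Of 54613 probe sets without control sequences, 41097 carried 1 gene symbol and 1801 several, which were left out. The brightest probe set stood for a gene, and genes at or above the 75th percentile were kept. A gene was counted at 2-fold; no test was run. Probe symbols came from the platform annotation, updated through RefSeq gene IDs for 41043 probe sets. A list gene was named where past 2-fold, up to 6 a direction. Where a list had no such gene, its 2 largest were named for some lists and left out for others. The 15 largest ratios each way and genes past 2-fold in both pairs were named too. Other genes, with probe-set ranges and dimmer genes, were chosen after their values were seen, and give values only. The gene lists and the comparison were chosen with earlier results of these data known. Scripts used Python 3.11.15, numpy 2.4.6 and pandas 2.3.3 and were tested on simulated data. Other scalings, filters and probe-set summaries were tried.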

Additional observations from a re-analysis of the deposited data

Results flagged for a closer look

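The following 3 lists of 10 or more kept genes had medians at least 0.1 (log2) from 0 on opposite sides in both pairs; the difference was not tested. The treated-pair median exceeded the control-pair median by 0.41 for the cytosolic ribosome, by 0.37 for the respiratory chain and by 0.24 for interferon genes and RNA sensors. Under quantile normalization the ribosomal median was 0.00 in the control and 0.01 in the treated pair, that of the respiratory chain -0.03 and 0.10, and that of the interferon list -0.05 and 0.08, so that none of the 3 lists was 0.1 from 0 in both pairs.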

How the results depend on the processing

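With the filter set at the median, 477 genes were at least 2-fold higher and 619 lower in the control pair, and 414 and 667 in the treated pair; with no filter the counts were 2264 and 2539, and 2055 and 2694. Where both control arrays had to reach the 75th percentile, 25 and 30 genes of the control pair were left. Fewer dim genes are counted by construction. Median centring gave 49 higher and 69 lower genes (41.5% of the called genes higher) and moved the overall median to -0.04; quantile normalization gave 55 and 58, an added offset 56 and 58, and the median over probe sets 69 and 68. The median of the EGFR and ERK list became 0.0059 with no filter, and TOR1AIP1 went to -0.0715 with the median over probe sets. Under that median 32 of the 52 named genes past 2-fold stayed so. The cause of these changes was not tested. No replicate could be left out. No paired analysis was possible because each group had 1 array and the labels number no replicates.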
